A study of Homo sapiens with 9 samples.

Results

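The first 5 Mb of chromosome 9, the end of its short arm (9p), held 1804 of the 213361 γH2AX peaks that 8 peak lists placed on chromosomes 1 to 22 and X. A peak was taken as a member when its midpoint lay on chromosome 9 from base 1 to base 5000000 of GRCh38. The region was chosen by its number of peaks in these same lists, so the counts, densities, window counts and overlaps that follow describe it and were not tested. It holds 0.171% of the assembled bases of the genome.

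The lists came from ChIP-seq of γH2AX in a human B-lymphocyte line, a lymphoblastoid culture, which the labels call GM09027A and the study's methods call GM07027. Cells were left untreated or were exposed for 24 h to the DNA polymerase inhibitor aphidicolin (APH, given in the labels as 0.1 μg/mL), to 2 mM hydroxyurea (HU), which depletes nucleotides, or to 200 μM of the DNA alkylating agent methyl methanesulfonate (MMS). Each of the 4 conditions had 2 replicates, from separate treatments and immunoprecipitations of 1 cell line. All 8 lists were called against input. The input itself was not used here, so its coverage of the region and the copy number of 9p were not checked. A peak list carries no expression values, so the cell type was not checked against marker genes.

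γH2AX is histone H2AX phosphorylated on its tail by the kinases ATM, ATR and DNA-PK. It is laid down around DNA double-strand breaks and stalled replication forks and spreads along the chromatin on either side, which is why it is called as broad peaks. The end of 9p carries the immune regulator DOCK8, the actin regulator KANK1, the DMRT transcription factor genes and the chromatin remodeller SMARCA2. Chromosome ends are also rich in sequences with close copies on other chromosomes, where short reads are hard to place.

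The sequences shown here carry the contrasts described in the following paragraphs: a stretch under a peak in all 8 lists, and 2 promoters that lay in gaps between peaks. They are reference sequences of GRCh38 on the + strand, and they were chosen after their values were seen. In the first, capitals mark bases under a peak in all 8 lists, and the whole of it was covered. In the promoters, which come from RefSeq (GRCh38.p14) and span 250 bases before to 50 after the start, capitals mark CG, the dinucleotide that DNA methylation uses.
DOCK8, all 8 lists, chr9:212830-213129: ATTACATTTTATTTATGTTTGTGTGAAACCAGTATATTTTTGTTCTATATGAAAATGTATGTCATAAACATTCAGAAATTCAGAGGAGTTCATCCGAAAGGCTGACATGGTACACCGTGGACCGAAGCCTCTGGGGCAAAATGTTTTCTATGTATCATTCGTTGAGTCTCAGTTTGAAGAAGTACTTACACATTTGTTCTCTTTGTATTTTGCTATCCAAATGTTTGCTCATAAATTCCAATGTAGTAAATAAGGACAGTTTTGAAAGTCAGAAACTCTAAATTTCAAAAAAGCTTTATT
DOCK8 promoter, chr9:214615-214914: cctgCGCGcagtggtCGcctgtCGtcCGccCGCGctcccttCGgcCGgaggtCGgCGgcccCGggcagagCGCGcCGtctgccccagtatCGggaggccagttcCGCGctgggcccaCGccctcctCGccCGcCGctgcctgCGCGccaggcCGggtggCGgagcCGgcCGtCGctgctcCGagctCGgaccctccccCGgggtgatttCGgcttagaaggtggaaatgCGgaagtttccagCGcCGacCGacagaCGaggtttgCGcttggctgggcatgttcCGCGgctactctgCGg
KANK1 promoter, chr9:470045-470344: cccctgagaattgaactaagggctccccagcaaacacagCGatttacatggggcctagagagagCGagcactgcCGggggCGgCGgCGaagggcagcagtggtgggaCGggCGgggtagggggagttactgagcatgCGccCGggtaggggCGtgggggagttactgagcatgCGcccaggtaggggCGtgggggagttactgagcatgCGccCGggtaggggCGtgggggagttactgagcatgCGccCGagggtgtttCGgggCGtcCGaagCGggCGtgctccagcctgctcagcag

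The stretch in DOCK8 was part of the longest run of bases, 376 bp from 212792 to 213167, that lay under a peak in every list, and it overlaps an exon of the antisense gene DOCK8-AS1. There were 10 such runs in the region, with 2104 bases in all. The DOCK8 promoter was 73.3% G and C with 42 CG, a number that 5.85% of the 35116 promoters in the RefSeq table reached. The KANK1 promoter had 23 CG and a GC content of 67.0%, and 35.8% of promoters had as many. The median promoter had 14 CG, and 96.0% had at least 1.

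The untreated lists held 287 and 286 peaks in the region, of 4779 and 4327 peaks. The APH lists held 246 and 319, of 17658 and 14009. The HU lists held 157 and 144, of 79943 and 69975, and the MMS lists held 166 and 199, of 12204 and 10466. The lists of treated cells were thus longer than those of untreated cells, but the HU and MMS lists each held fewer peaks at the end of 9p than both untreated lists, with no overlap. Mean numbers were 286.5 ± 0.707 for untreated cells, 282.5 ± 51.6 for APH, 150.5 ± 9.19 for HU and 182.5 ± 23.3 for MMS (SD, n = 2 each).

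Set against an even spread of each list over the assembled genome, the density of peaks was 35.04 and 38.56 times that in the untreated lists, 8.13 and 13.3 times in the APH lists, 7.94 and 11.1 times in the MMS lists, and 1.146 and 1.201 times in the HU lists. Among 586 windows of 5 Mb over the genome, the region ranked 1 in all 6 lists of untreated, APH and MMS cells, and 191 and 174 in the HU lists. With the stronger 50% of each list by p-value, the mean ratio was 59.7 instead of 36.8 in the untreated lists, 16.2 instead of 10.7 in the APH lists and 0.992 instead of 1.173 in the HU lists. With peaks of at least 3-fold enrichment it was 83.5, 31.4 and 0.747, and over the first 4 Mb the HU ratio was 0.817, so the HU lists had no excess that held over these settings. The share of a list that fell in the region was 6.01% and 6.61% in the untreated lists and 0.196% and 0.206% in the HU lists. The depth behind each list is unknown, so peak numbers hold the effects of depth and of treatment together.

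In untreated cells the 3 other chromosome ends compared here were less dense. The last 5 Mb of chromosome 9, at its other end, held 21 and 16 untreated peaks, which was 2.59 and 2.18 times an even spread. The first 5 Mb of chromosome 17 held 138 and 116 untreated peaks (17.2 and 15.9 times), and its last 5 Mb held 134 and 117 (16.5 and 15.9 times). Under HU, the first 5 Mb of chromosome 17 were 2.88 and 2.91 times as dense as an even spread, above the values of the 9p end in both lists. The next 5 Mb of chromosome 9, from 5 to 10 Mb, held 14 and 10 untreated peaks.

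Across the boundary at 5 Mb the untreated lists were sparse on both sides. The last megabase inside held 5 and 2 untreated peaks, and the first megabase outside held 4 and 1. HU peaks ran across it, with 75 and 59 inside and 53 and 50 outside. The APH lists held 13 and 17 inside and 2 and 4 outside, and the MMS lists held 7 and 12 inside and 3 and 5 outside.

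Peaks of untreated and APH-treated cells were not evenly spread within the region but formed a block near the chromosome end. The first 2 Mb held 269 and 267 untreated peaks (93.7% and 93.4%), 208 and 263 APH peaks (84.5% and 82.4%), 151 and 168 MMS peaks (91.0% and 84.4%) and 66 and 68 HU peaks (42.0% and 47.2%). HU was the only condition of the 4 with most of its peaks beyond 2 Mb. The median midpoint was at 1101305 and 998147 in the untreated lists, 615271 and 634402 in the MMS lists, and 2654623 and 2068362 in the HU lists.

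**Figure D1:**
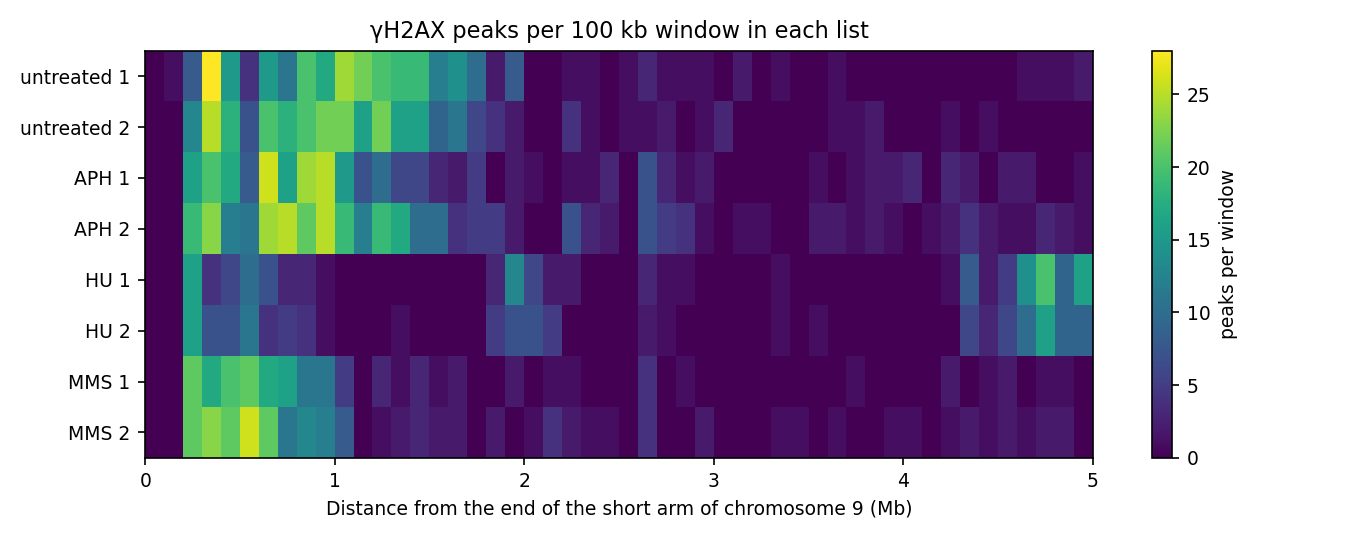
Number of γH2AX peaks per 100 kb window (color) in each of the 8 lists (rows), by distance from the end of the short arm of chromosome 9 in Mb. Untreated and APH lists are dense from 0.2 to about 1.8 Mb, MMS lists to about 1 Mb, and HU lists hold 3 separate clusters, the last next to the 5 Mb boundary.

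Seen per 100 kb, the densest window of both untreated lists was 300001 to 400000 in DOCK8, with 28 and 25 peaks. APH replicate 1 was densest from 600001 to 700000 in KANK1 with 26 peaks, and APH replicate 2 had 25 peaks both from 700001 to 800000 and from 900001 to 1000000 at the DMRT genes. MMS replicate 1 had 21 peaks both from 200001 to 300000 and from 500001 to 600000, and replicate 2 was densest in the latter window with 26. The window from 4700001 to 4800000 was the densest of HU replicate 1 with 20 peaks, and in replicate 2 it was tied with that from 200001 to 300000 at 16. Of 50 windows, 17 and 20 held no untreated peak, 15 and 9 no APH peak, 25 and 26 no HU peak, and 25 and 16 no MMS peak.

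Over the 50 windows, peak numbers of replicates correlated at Pearson's r of 0.948 in untreated cells, 0.918 in the APH lists, 0.935 in the HU lists and 0.972 in the MMS lists. Mean profiles correlated at 0.878 between untreated and APH, 0.789 between APH and MMS, 0.592 between untreated and MMS, 0.410 between HU and MMS, 0.141 between APH and HU, and -0.0146 between untreated and HU. Neighbouring windows share broad stretches of signal and all lists share the input, so these values describe the profiles only. The HU profile was the one least like the untreated profile.

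A window was counted as higher or lower under a treatment when both treated lists lay above, or below, both untreated lists. Under APH, 13 of 47 windows with a peak were higher and 8 lower, where 28.3% and 0.649% of windows over the genome were. Under HU, 11 of 43 windows were higher and 18 lower, against 67.1% and 1.01% over the genome. Under MMS, 6 of 46 were higher and 13 lower, against 20.0% and 1.82%. The high untreated counts in these windows were what the region was proposed for, so nothing is read from the excess of lower windows. The 11 windows higher under HU were those at 200001 to 300000 and 500001 to 600000, from 2000001 to 2200000, and every window from 4300001 to 5000000.

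The region was divided at gene boundaries into 11 segments, after the window values had been seen. From the chromosome end to the start of DOCK8, 211 kb with the genes WASHC1 (a subunit of the endosomal WASH complex), FOXD4 (a forkhead transcription factor) and ZNG1A (a zinc chaperone), there were 1 to 4 peaks in a list. Neither these 3 genes nor the predicted coding gene LOC124902106 held a peak midpoint in any list. They were the 4 of 25 protein-coding genes without one. The first peak started at base 105730 in untreated replicate 1 and between 203745 and 206870 in the other 7 lists. The authors removed reads of mapping quality below 40, these genes have close copies on other chromosomes, and the part of mappability in their counts was not tested.

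DOCK8 (211257 to 465255, + strand) encodes an exchange factor for the GTPase CDC42 that lymphocytes need to migrate and whose loss causes immunodeficiency. It held 49 and 52 peaks in the untreated lists, 50 and 50 in the APH lists, 47 and 55 in the MMS lists, and 18 and 23 in the HU lists. The HU lists were the lowest, and the other 3 conditions overlapped. The number of bases under a peak separated the conditions more than the number of peaks did. Peaks covered 61.3% and 47.7% of DOCK8 in untreated cells, 54.1% and 68.9% in the APH lists, 21.7% and 23.8% in the MMS lists, and 5.65% and 8.58% in the HU lists.

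KANK1 (470295 to 746103, + strand) encodes a scaffold protein that restrains actin polymerization. Its counts were 25 and 38 in the untreated lists, 44 and 50 in the APH lists, 53 and 57 in the MMS lists, and 24 and 21 in the HU lists. MMS lists, which were longer as a whole, thus held more peaks in KANK1 than untreated lists did, but they covered less of it. In the segment from the end of DOCK8 to the end of KANK1, 86.1% and 80.3% of bases were under a peak in untreated cells, 72.7% and 76.3% in the APH lists, 23.8% and 27.0% in the MMS lists, and 5.96% and 4.61% in the HU lists. Against an even spread, this segment was 54.2 and 93.4 times as dense in the untreated lists and 45.9 and 57.4 times in the MMS lists. The median peak there was 5463 and 2793 bp wide in the untreated lists and 814.5 and 914.5 bp wide in the MMS lists, and the untreated peaks there were the longer ones.

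The DMRT genes encode transcription factors with a DM domain, of which DMRT1 acts in testis development. DMRT1 (841697 to 969090, + strand) held 28 and 28 peaks in the untreated lists, 33 and 28 in the APH lists, 12 and 17 in the MMS lists, and 3 and 3 in the HU lists. The much shorter DMRT3 held 2 and 3 untreated peaks and DMRT2 held 2 and 1. Over the cluster of the 3 genes, 71.2% and 64.0% of bases lay under a peak in untreated cells, 44.1% and 56.7% in the APH lists, 7.36% and 10.8% in the MMS lists, and 1.74% and 1.34% in the HU lists. Here the conditions stood in the same order as in KANK1 and did not overlap.

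Between the RefSeq spans of DMRT2 and SMARCA2 lie 958 kb without a RefSeq protein-coding gene, although GENCODE places a start of SMARCA2 within them. This segment held 139 and 112 untreated peaks, 48 and 93 APH peaks, 12 and 15 MMS peaks, and 18 and 16 HU peaks. It was where untreated and MMS lists differed most in number. Untreated peaks were narrower here, with a median of 853 and 650 bp, and covered 17.3% and 10.7% of the segment. In 100 kb windows from 1100001 to 1800000, HU lists held 0 or 1 peak each and MMS lists held 0 to 3, while untreated lists held 6 to 22.

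**Figure D2:**
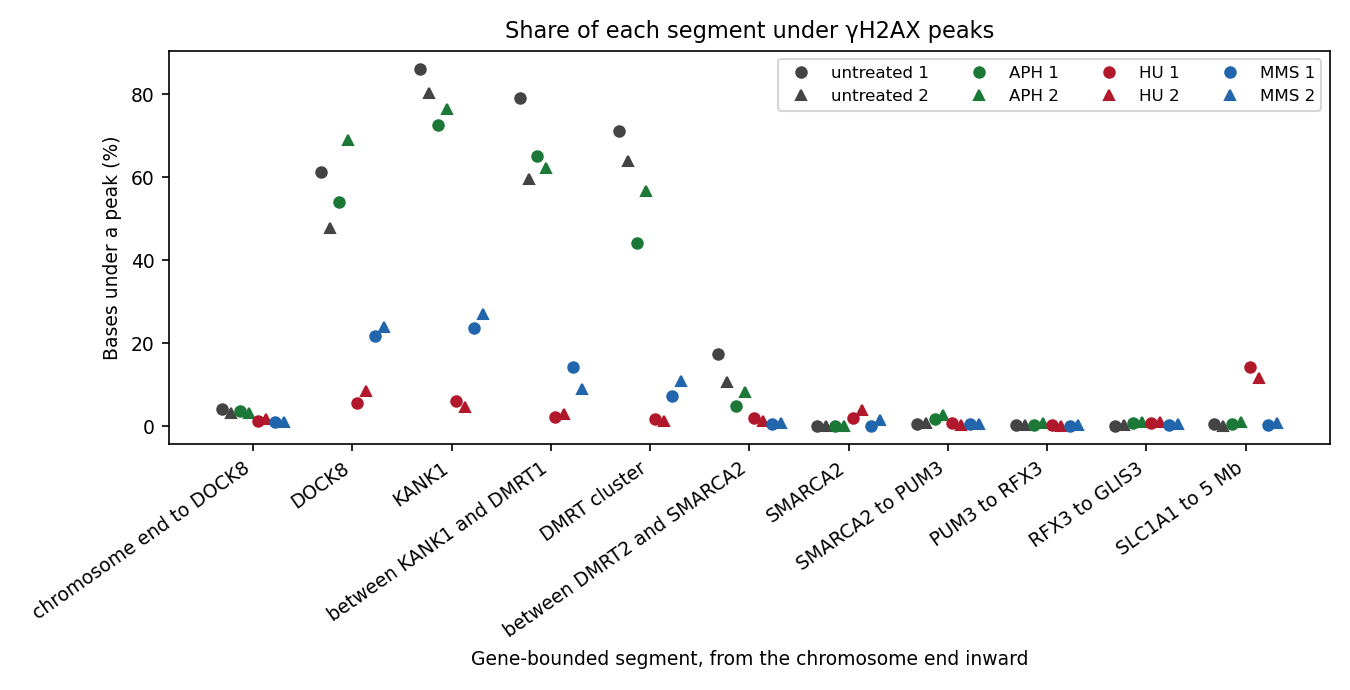
Percent of the bases of each gene-bounded segment that lie under a γH2AX peak, for the 8 lists (color for the condition, circle for replicate 1 and triangle for replicate 2), from the chromosome end inward. Untreated and APH lists cover 44.1% to 86.1% of the 4 segments from DOCK8 to the DMRT cluster, MMS lists 7.36% to 27.0%, and HU lists at most 8.58%.

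SMARCA2 (2015347 to 2193620, + strand) encodes BRM, an ATPase of SWI/SNF chromatin remodelling complexes. Its RefSeq span held no peak midpoint in the 4 untreated and APH lists, 1 and 5 in the MMS lists, and 6 and 9 in the HU lists. Against an even spread, the span was 1.23 and 2.10 times as dense in the HU lists and 1.34 and 7.80 times in the MMS lists. Over the genome, the untreated lists held 0.164 and 0.149 peaks per 100 kb and the APH lists 0.607 and 0.481. Zeros over 178 kb are therefore not read as a loss. The untreated and APH zeros of SMARCA2 stand beside the dense block that ends before it. The nearest untreated peaks lay 35313 and 41420 bp before its RefSeq start site and 236743 and 202495 bp after it. GENCODE gives SMARCA2 a further start before this span. The midpoint of a site seen in untreated replicate 1 alone (1979428 to 1980034) lay 559 bp from that start.

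From the end of SMARCA2 to the end of GLIS3, the 3 segments held at most 3.84 peaks per 100 kb in any list. Set against an even spread, the segment from SMARCA2 to PUM3 was still 6.56 and 9.31 times as dense in the untreated lists and 3.80 and 7.99 times in the APH lists. VLDLR, a lipoprotein receptor, held 0 to 4 peaks per list. KCNV2, a potassium channel subunit, held 1 peak in 1 list. PUM3, an RNA-binding protein gene, held 1 peak in 1 list, and RFX3, a transcription factor of ciliated cells, held 0 to 2. GLIS3, a zinc finger factor of pancreatic beta cells (3824127 to 4490465, - strand), held 0 and 3 untreated peaks, 12 and 12 in the APH lists, 11 and 9 in the HU lists, and 3 and 6 in the MMS lists. Its APH and HU counts lay above all 4 counts of the untreated and MMS lists, but the lists differ in length. Against an even spread, the segment from RFX3 to the end of GLIS3 was least dense in the HU lists, at 0.415 and 0.431 times. There the ratios were 0.632 and 4.19 in the untreated lists, 2.39 and 3.66 in the APH lists, and 0.989 and 2.02 in the MMS lists.

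The segment from the end of GLIS3 to 5 Mb was the one where HU peaks gathered. It held 64 and 50 HU peaks, against 5 and 0 in the untreated lists, 5 and 8 in the APH lists, and 4 and 7 in the MMS lists. The HU lists were also the longest, so these counts and the gene counts below carry list length. Against an even spread, the segment was 4.57 and 4.08 times as dense in the HU lists and 5.98 and 0 times in the untreated lists. The ratios were 1.62 and 3.26 in the APH lists and 1.87 and 3.82 in the MMS lists, for the same segment. HU peaks covered 14.2% and 11.7% of it and no other list covered more than 1.09%. SPATA6L (4588821 to 4666480, - strand) held 12 and 8 HU peaks and 0 to 2 in each other list. RCL1 (4792944 to 4861066, + strand), which acts in ribosomal RNA processing, held 6 and 5 in the HU lists and 0 or 1 elsewhere. AK3, a mitochondrial adenylate kinase, held 6 and 3 HU peaks and 1 peak in 1 MMS list, and the part of JAK2, a cytokine receptor kinase, within the region held 3 and 2 and none in the other lists. CDC37L1, an HSP90 cochaperone, held 1 and 2 HU peaks and PLPP6, a lipid phosphatase, 1 and 1, and neither held any in the other lists. SLC1A1, a glutamate transporter, held 2 and 3 in the HU lists, 2 and 1 in the APH lists, 1 and 2 in the MMS lists and none in the untreated lists, so that HU, APH and MMS overlapped.

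Counted over the 25 protein-coding genes, HU lists reached the most genes, as they did over the genome. A peak midpoint lay in 9 and 7 genes in untreated cells, 9 and 12 in the APH lists, 15 and 16 in the HU lists, and 10 and 13 in the MMS lists. Over the genome, and as the mean of both replicates, 7.72% of coding genes held a midpoint in the untreated lists, 22.4% in the APH lists, 51.1% in the HU lists and 23.0% in the MMS lists.

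Gene bodies of all kinds took up 69.0% of the assembled bases and held 59.9% and 65.0% of untreated peaks, 74.8% and 68.3% of APH peaks, 70.1% and 73.6% of HU peaks, and 83.1% and 87.4% of MMS peaks. The share of peaks minus the share of bases averaged 3.84 percentage points over the 8 lists (SD 9.09) and was above 0 in 5 of 8, which did not pass an exact two-sided sign-flip permutation test (p = 0.266, smallest possible 0.00781). The difference was -9.02 and -3.91 points in the untreated lists and 14.2 and 18.5 points in the MMS lists. With protein-coding genes alone the mean was 11.4 points (exact p = 0.0547). Exons hold 4.66% of bases and held 3.14% and 3.15% of untreated midpoints, 4.07% and 5.02% of APH, 8.28% and 9.72% of HU, and 6.63% and 8.54% of MMS midpoints.

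Peaks at the end of 9p were wider than elsewhere in 6 of the 8 lists. Median widths in the region were 1077 and 1032.5 bp in the untreated lists, 1063 and 1069 bp in the APH lists, 745 and 681.5 bp in the HU lists, and 753.5 and 736 bp in the MMS lists. In the rest of the genome they were 522 and 538 bp, 560 and 551 bp, 763 and 743 bp, and 517 and 529 bp. The 6 lists of untreated, APH and MMS cells had wider peaks in the region than outside it, and both HU lists had narrower ones. The other dense chromosome ends also had wide peaks: untreated medians were 929 and 930 bp in the last 5 Mb of chromosome 17 and 815 and 642.5 bp in its first 5 Mb, and APH medians were 820 to 877 bp in both. In the last 5 Mb of chromosome 9 the untreated medians were 534 and 455 bp. Peaks of at least 2000 bp made up 31.0% and 29.4% of untreated peaks in the region and 3.23% and 2.80% outside. The widest peak was 43738 bp in an untreated list, 32773 bp in an APH list, 7551 bp in an HU list and 5679 bp in an MMS list.

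**Figure D3:**
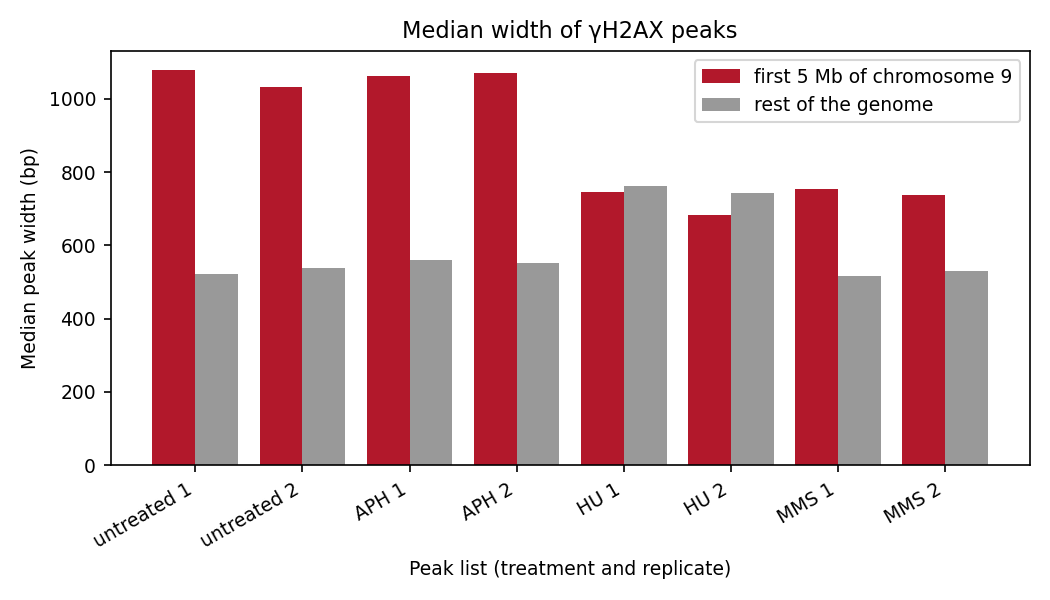
Median width of γH2AX peaks in bp in each list, in the first 5 Mb of chromosome 9 (red) and in the rest of the genome (grey). The red bars of untreated and APH lists stand at 1032.5 to 1077 bp, about 1.90 to 2.06 times the grey ones, and those of HU lists stand below theirs.

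Width was not itself used to propose the region, and it was compared between conditions. The other dense chromosome ends also had wide peaks, so width is not separate from the peak numbers that the rule used. No conclusion is drawn from these tests. The mean of the list medians was lower in the 6 treated lists than in the 2 untreated lists, by a difference of -213.4 bp, and an exact two-sided permutation test gave p = 0.250, with 0.0357 the smallest possible. By treatment the difference from untreated was 11.25 bp for APH (exact p = 1.00), -341.5 bp for HU (exact p = 0.333) and -310.0 bp for MMS (exact p = 0.333). With 2 lists against 2 no p below 0.333 is possible. HU and MMS medians lay below both untreated medians without overlap, and APH medians lay between them. Untreated peaks covered 814.6 and 665.5 kb of the region, APH peaks 580.2 and 697.1 kb, HU peaks 148.5 and 134.6 kb, and MMS peaks 168.0 and 196.2 kb.

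The peaks were individually weak, in the region as in the rest of the genome. Median fold enrichment over background in the region was 2.75 and 2.71 in the untreated lists, 2.72 and 2.74 in the APH lists, 2.61 and 2.68 in the HU lists, and 2.69 and 2.67 in the MMS lists, and the highest there in any list was 3.94. Outside the region the medians were 2.64 and 2.61 (untreated), 2.55 and 2.67 (APH), 2.70 and 2.77 (HU), and 2.64 and 2.64 (MMS). A q-value of at most 0.05 was reached by 7 and 6 untreated peaks of the region, 6 and 13 in the APH lists, 117 and 75 in the HU lists, and 0 and 1 in the MMS lists. Over the genome, 0.703% of untreated, 0.884% of APH, 70.0% of HU and 0.176% of MMS peaks reached it. A q-value depends on the whole list, so these counts compare a region with its own list and not lists with each other.

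Replicates overlapped more at the end of 9p than over the genome in all conditions but HU. Of the untreated peaks, 64.1% of replicate 1 and 76.6% of replicate 2 overlapped a peak of the other replicate by at least 1 bp, and 17.6% did over the genome. Under APH 67.9% and 51.4% did, with 11.7% over the genome. Under MMS 50.6% and 42.2% did, with 6.44% over the genome. Under HU the shares were 33.1% and 38.2% in the region and 46.8% over the genome. The untreated lists covered 13.3% and 16.3% of the bases of the region, the APH lists 11.6% and 14.0%, and the HU and MMS lists 2.70% to 3.93%, and a list that covers more bases is easier to overlap.

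**Figure D4:**
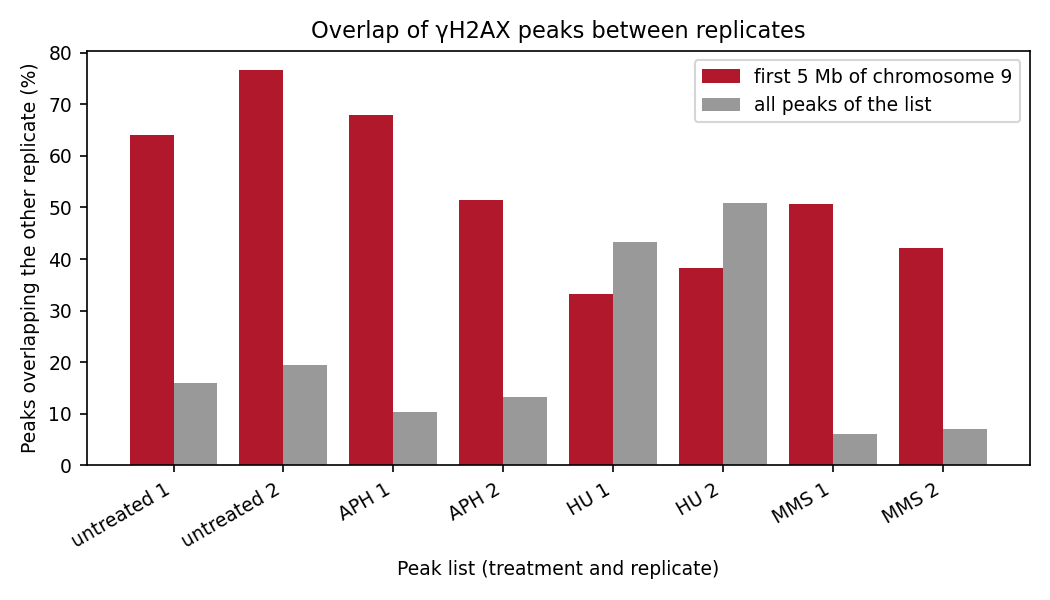
Percent of the peaks of each list that overlap a peak of the other replicate of the same condition by at least 1 bp, for peaks in the first 5 Mb of chromosome 9 (red) and for all peaks of the list (grey). Red bars stand above grey ones in untreated, APH and MMS lists and below them in both HU lists.

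Between conditions, overlap was one-sided for MMS and similar in both directions for untreated and APH. The untreated lists together covered 18.8% of the bases of the region, the APH lists 17.2%, the MMS lists 6.09% and the HU lists 4.93%. A condition that covers more bases is easier to overlap, and the part of cover in these shares was not tested. MMS peaks of the region overlapped a peak of either APH list in 86.3% of cases (14.0% over the genome) and a peak of either untreated list in 83.3% (6.86%). In the other direction, 44.8% of APH peaks (9.96% over the genome) and 38.6% of untreated peaks (16.3%) overlapped an MMS peak. Of untreated peaks, 70.2% overlapped an APH peak (31.5% over the genome), and 75.8% of APH peaks overlapped an untreated one (9.05%). Of HU peaks, 41.5% overlapped an untreated peak (3.96% over the genome), while 17.5% of untreated peaks overlapped an HU peak, where 47.4% did over the genome.

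Merging the peaks of all 8 lists gave 556 sites, of which 321 (57.7%) were seen in 1 list, as 71.1% of the sites merged over the genome were, and 16 in all 8. Peaks lay over 1293.0 kb in at least 1 list, and over 2.10 kb in all 8. The 16 sites in all lists were those of the first megabase: 1 reached over the start of the DOCK8 locus, 7 lay in DOCK8, 5 in KANK1, 1 between KANK1 and DMRT1 and 2 in the DMRT cluster. All 40 sites found in both MMS lists were found in both untreated lists, where 16.6% of such sites were over the genome. Of the 40, 18 lay in DOCK8, 9 in the KANK1 segment and 8 in the DMRT cluster, where untreated peaks covered 47.7% to 86.1% of bases. Sites merged over all 8 lists in such cover are easily shared, so this is not a separate result. Of the 127 sites in both untreated lists, 72 were in both APH lists (53.8% over the genome), 64 were in no MMS list (53.4%) and 97 were in no HU list (39.5%). The segment between DMRT2 and SMARCA2 held 55 of those 64 and 65 of those 97.

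HU sites without an untreated peak lay elsewhere. Of 49 sites in both HU lists, 27 were in neither untreated list, where 92.3% were over the genome, and 24 were in no other list (70.8% over the genome). Of the 27, 22 lay between GLIS3 and 5 Mb, 3 in SMARCA2 and 2 between RFX3 and the end of GLIS3.

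Sites in all 8 lists were ranked by fold enrichment, taken in each list from the strongest peak of the site and averaged over the lists. The 5 that ranked highest were wide and lay near DOCK8 and KANK1. A site that joins many peaks can rank higher by this measure, so its width is not a separate result. The highest was 505462 to 580183 in KANK1, 74722 bp built from 77 peaks, at a mean of 3.18-fold. It was followed by 751633 to 765870, between KANK1 and DMRT1, at 3.09-fold, and by 203583 to 214451 at 3.07-fold. The latter reaches into the RefSeq span of DOCK8, which begins at 211257, and ends before the promoter's start site at 214865. The sites 581069 to 613837 and 620278 to 645051, both in KANK1, had 3.02-fold each. A site this wide joins peaks that need not overlap each other in every list.

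Several CG-rich gene starts lay in gaps between peaks, and others did not. At the start site of the DOCK8 promoter, base 214865, no list had a peak, although peaks stood on both sides of it. The nearest peak ended 414 to 1698 bp before the start and began 906 to 3059 bp after it. At the first KANK1 start, base 470295, no list had a peak either, and the gap between the flanking peaks was 4403 and 3387 bp in the untreated lists and 4538 and 3339 bp in the APH lists. The first RefSeq starts of DMRT1 and DMRT3 were without a peak in all 8 lists, and that of DMRT2 was under a peak in APH replicate 2 alone. In untreated cells, where 64.0% or more of the DMRT cluster was covered, the gap at the first DMRT3 start was 1536 and 2232 bp. Other starts of these genes were under peaks. A second DMRT1 promoter (843039 to 843338, 23 CG) overlapped a peak in both untreated lists, a promoter of the RNA gene LOC105375949 (826513 to 826812, 17 CG) was wholly covered in both, and the first DMRT2 promoter (1050107 to 1050406, 28 CG) overlapped a peak in both APH lists. Counting every GENCODE transcript start, a peak stood over at least 1 start of DOCK8, KANK1, DMRT2 and DMRT3 in both untreated lists, and over 1 of DMRT1 in replicate 2.

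The RefSeq table held 71 promoters in the region, 38 of them of 21 protein-coding genes. Of the coding promoters, 3 overlapped a peak in each of the 4 untreated and APH lists, none in the HU lists and 1 in each MMS list. The share over all promoters of the genome is not given, so these counts are not read as high or low. Some promoters share bases with each other, so the promoter counts here are not of separate sequences. In the stretch from the start of DOCK8 to the end of DMRT2 (211257 to 1057552), 4 of 11 promoters with a GC content of 55% or more had a peak in any list, and 9 of 12 with less GC did. The sequence of this stretch at large showed the same order. It was cut into 1692 tiles of 500 bp, of which 60 had a GC content of 55% or more. Untreated peaks covered 28.09% and 21.95% of these 60 tiles but 79.1% and 65.7% of the 529 tiles from 45% to 55%, 76.1% and 68.1% of the 930 tiles from 35% to 45%, and 68.6% and 58.0% of the 173 tiles below 35%.

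**Figure D5:**
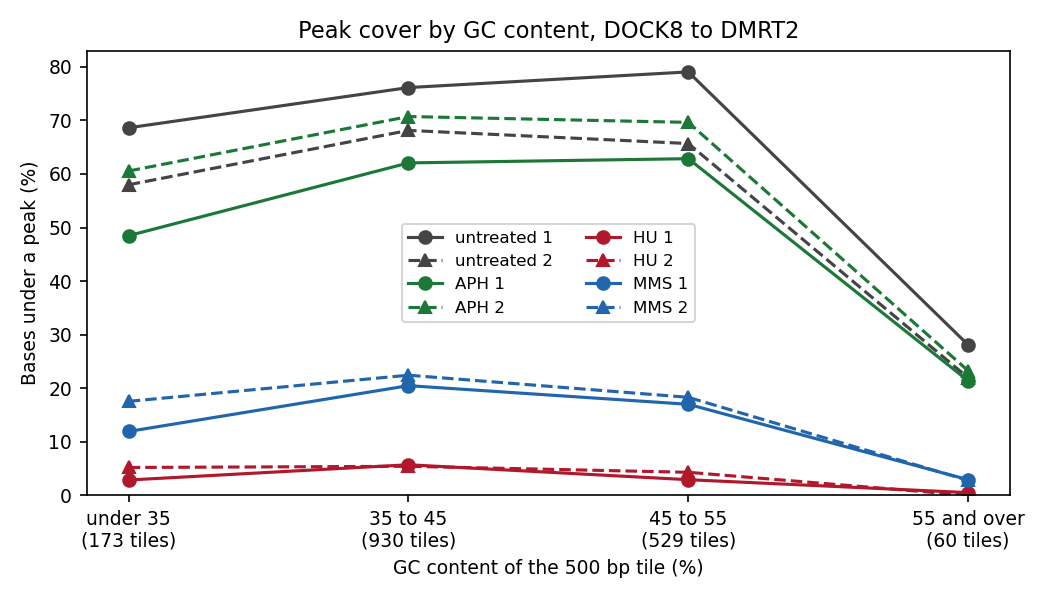
Percent of bases under a γH2AX peak in 500 bp tiles of the stretch from DOCK8 to DMRT2, by the GC content of the tile in percent, for the 8 lists (color for the condition, solid lines and circles for replicate 1, dashed lines and triangles for replicate 2). Each list has its lowest cover in the class of 55% and over, where untreated and APH lists stand at 21.4% to 28.1%.

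Cover in that class was the lowest of the 4 classes in all 8 lists. In the APH lists it was 21.4% and 23.3%, against 62.1% and 70.7% in the tiles from 35% to 45%. In the MMS lists it was 2.92% and 2.79%, against 20.5% and 22.4%, and in the HU lists 0.507% and 0, against 5.71% and 5.42%. The GC classes were chosen after these values had been seen, tiles side by side share their peaks, and no test was made.

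Mean GC content of the peaks was 41.4% and 41.6% in the untreated lists, 42.3% and 41.8% in the APH lists, 40.3% and 40.6% in the HU lists, and 42.5% and 41.5% in the MMS lists, where the region as a whole had 40.2%. Peaks elsewhere in the genome had 44.3% to 47.3%. The difference between the peaks and the region was 1.31 percentage points (SD 0.749, n = 8) and above 0 in all 8 lists, with p = 0.00781 in an exact two-sided sign-flip permutation test, the smallest it can give. The 8 lists share 1 cell line, the input and many peaks. They are not the independent values that this test assumes, so its p-value describes agreement among related lists. The GC difference did not hold against the 100 kb window of each peak, a comparison added after seeing the data, where the difference was 0.0335 points (exact p = 0.867). Against their own windows untreated peaks differed by 0.329 and 0.273 points and HU peaks by -0.794 and -0.574. The 4 segments from DOCK8 to the DMRT cluster had 41.5% to 44.6% GC, above the region's mean, and the segment between DMRT2 and SMARCA2, which held the most untreated peaks, had 39.4%, below it.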

How the data were processed

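γH2AX ChIP-seq peak lists of 8 libraries (untreated, APH, HU and MMS, 2 replicates each) were analysed. According to the study's methods, paired-end reads were aligned to GRCh38 with Bowtie2 at default settings, reads of mapping quality below 40 and PCR duplicates were removed, and broad peaks were called with MACS2 on each replicate, with blacklisted regions left out. The submitters' processing notes also name SAMtools, and versions are not given in the sources used here. The deposited lists give each peak's fold enrichment as a ratio over background and its p-value and q-value as −log10, as the authors' peak caller wrote them. The largest p-value kept was 0.001. Reads behind a peak are not listed, so depth is unknown, no interval was computed, and the 2 replicates are the only measure of precision.

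The region and the gene lists were chosen with earlier results of these data known. Only peaks of chromosomes 1 to 22 and X entered the counts (Python 3.11.15, pandas 2.3.3, NumPy 2.4.6, SciPy 1.17.1, figures with matplotlib 3.10.9). A peak counted in a region, window, gene or segment by its midpoint, and the cover of a segment is that of these peaks. Density was divided by each list's peaks per assembled base. Overlap meant at least 1 shared bp. Gene spans and promoters came from RefSeq (GRCh38.p14), exons and start sites of nearest genes from GENCODE, and strands were matched by symbol. Lists were compared by exact permutation tests with a threshold of 0.05. Genes with list values are DOCK8, KANK1, SMARCA2 and each coding gene with at least 5 peaks in both lists of a condition, and named sites are the 5 in most lists. These include the highest of APH, HU and MMS, which the rule also named, and that of untreated cells is not reported here. Other genes, segments and GC classes were chosen after their values were seen. The functions were checked on simulated data. Alternatives were the stronger 50% of each list, a fold enrichment of at least 3, other region, window and overlap limits, and leaving out lists.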

Additional observations from a re-analysis of the deposited data

How the results depend on the processing

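With the stronger 50% of each list, the mean density ratio rose to 59.7 (untreated), 16.2 (APH) and 12.2 (MMS) and fell below an even spread, to 0.992, for HU. With peaks of at least 3-fold enrichment it was 83.5 (untreated), 31.4 (APH) and 0.747 (HU). Over the first 4 Mb it was 45.5 in untreated cells and 0.817 under HU, the limit leaving out the HU cluster next to 5 Mb. Leaving out 1 replicate gave 35.04 to 38.56 (untreated), 8.13 to 13.3 (APH), 1.146 to 1.201 (HU) and 7.94 to 11.1 (MMS). Replicate overlap fell to 51.7% (untreated), 45.8% (APH), 21.6% (HU) and 25.0% (MMS) when 50% of a peak had to be covered, was 46.9% (HU) and 60.4% (MMS) within 1 kb, and was 27.2% for HU with the stronger peaks. In 250 kb windows, 45.0% of windows of the region were higher under APH and 20.0% under MMS. No share over the genome is given for this window size, so neither value is read as an excess. The GC difference against each peak's own window, 0.0335 points, was the only test result that changed sides of its threshold, and the cause of the other changes was not tested. The width difference was -181.5 to -259.0 bp without single lists (p = 0.0952 to 0.571, exact permutation tests), the gene body difference 1.75 to 5.68 points and the GC difference 1.17 to 1.48 points. The labels and the study's methods do not say whether lists with the same replicate number came from the same experiment. Deviations of same-numbered lists correlated at -0.154 to 0.165 over 1 Mb windows, and with the replicate block the width difference of -213.4 bp had p = 0.3125 (exact permutation test, smallest possible 0.0625). Replicate overlap and window calls need both replicates, so no value exists without 1 of them. Depth could not be compared, and a stretch without a peak may hold signal below the threshold.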

Other observations

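Long non-coding RNA genes of the gap between DMRT2 and SMARCA2 differed in which lists reached them. LOC102723803 (1298268 to 1480891) held 35 and 30 peaks in the untreated lists, 12 and 25 in the APH lists, 4 and 5 in the MMS lists, and 0 and 1 in the HU lists. LOC105375951 (1701337 to 1962697), next to SMARCA2, held 17 and 11 in the untreated lists, 7 and 12 in the APH lists, 2 and 2 in the MMS lists, and 10 and 8 in the HU lists. HU peaks were thus almost absent from the first of these genes, and in the second both HU counts lay below both untreated counts and between the APH counts.

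Being close to a chromosome end, the peaks were also searched for the telomere repeat, TTAGGG on either strand, in 500 bp around each midpoint. It was found in 17.8% and 17.8% of untreated windows, 18.7% and 17.6% of APH, 22.3% and 22.9% of HU, and 19.9% and 18.6% of MMS windows, and in 18.3% of all 9980 tiles of 500 bp in the region. No window held 2 copies in a row, and 0.0200% of tiles did. Runs of at least 12 A or 12 T lay in 2.78% to 9.79% of peak windows per list and in 10.2% of tiles. These motifs were chosen after the peaks had been seen, and the shares are descriptions.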
